A study of Mus musculus with 12 samples.

Results

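Genes of the Il15, Il12 and Il27 cytokines, and of receptor chains for Il15 and Il12, were followed in mouse lung. Exposure was to extract of a dust mite, Dermatophagoides farinae. The 8 genes were taken by symbol from a list drawn up with earlier results of these data known: the ligand genes Il15, Il12a, Il12b, Ebi3 and Il27, and the receptor genes Il15ra, Il12rb1 and Il12rb2. They are 8 of 33924 genes in the count tables of an RNase III experiment and 8 of 22609 in those of a knockout experiment, and all 8 passed the filter on low counts in each, Il27 in the RNase III experiment only through its extract libraries. Whole lung of mice of the B6 background, aged 6 to 8 weeks, was sampled 14 to 16 h after treatment, and RNA was sequenced in 12 libraries. In the RNase III experiment wild-type mice received phosphate-buffered saline (PBS, replicates 1 and 2), extract without RNase III (replicates 3 and 4) or extract with RNase III (replicates 5 and 6), which degrades RNA duplexes. In the knockout experiment wild-type mice and Tlr3 Mavs double knockout mice received PBS (1 library per genotype, replicates 1 and 2) or extract (wild-type replicates 3 and 4, knockout replicates 5 and 6). Tlr3 detects RNA duplexes inside endosomes, and Mavs passes on the signal of RNA sensors in the cytosol. The labels give neither route nor dose and do not say which libraries came from separate animals. P-values therefore set a difference only against the spread between these libraries, and that spread may be technical.

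Il15 protein is held by Il15ra on the surface of the cell that makes it and shown to the Il2rb and Il2rg chains of NK cells and CD8 T cells, which depend on it. Il12a and Il12b together form a cytokine of dendritic cells and macrophages that acts through Il12rb1 and Il12rb2 and Stat4 and drives Ifng production; Il12b also pairs with Il23a. Il27 pairs with Ebi3, acts through Il27ra and Il6st, and tempers as well as promotes T cell responses, and Ebi3 can also pair with Il12a.

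Promoters are shown for members whose levels moved apart in these lungs, as the sequence beside the response described further on. RefSeq's table for mouse (GRCm38.p6) gave promoters for 5 of the 8 genes, Il15ra, Il12a, Il12b, Il12rb2 and Ebi3, each 300 bases long from 250 before to 50 after a start site. These coordinates are not those of the count tables, which were mapped to mm9. Each sequence runs 5′ to 3′ on the gene's strand, and capitals mark matches to the motifs described after them.
Il15ra (chr2:11705462-11705761, plus strand): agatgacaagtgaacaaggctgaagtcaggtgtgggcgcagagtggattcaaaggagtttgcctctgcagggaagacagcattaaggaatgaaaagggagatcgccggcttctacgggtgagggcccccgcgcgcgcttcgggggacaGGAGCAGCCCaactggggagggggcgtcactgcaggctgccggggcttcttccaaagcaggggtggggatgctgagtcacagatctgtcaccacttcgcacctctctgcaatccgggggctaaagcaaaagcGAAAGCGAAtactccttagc
Il12a (chr3:68691174-68691473, plus strand): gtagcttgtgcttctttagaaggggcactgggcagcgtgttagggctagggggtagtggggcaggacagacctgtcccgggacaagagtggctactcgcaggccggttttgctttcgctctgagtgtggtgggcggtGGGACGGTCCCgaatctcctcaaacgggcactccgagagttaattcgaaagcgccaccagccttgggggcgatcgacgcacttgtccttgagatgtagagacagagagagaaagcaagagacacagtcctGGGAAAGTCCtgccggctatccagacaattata
Il12b (chr11:44399813-44400112, plus strand): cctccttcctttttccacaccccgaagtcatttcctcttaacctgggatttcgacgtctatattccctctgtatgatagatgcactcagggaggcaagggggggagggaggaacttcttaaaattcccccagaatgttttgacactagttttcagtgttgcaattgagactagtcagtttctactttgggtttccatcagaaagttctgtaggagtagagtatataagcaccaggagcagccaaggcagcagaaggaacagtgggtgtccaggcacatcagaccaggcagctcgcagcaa
Il12rb2 (chr6:67376139-67376438, minus strand): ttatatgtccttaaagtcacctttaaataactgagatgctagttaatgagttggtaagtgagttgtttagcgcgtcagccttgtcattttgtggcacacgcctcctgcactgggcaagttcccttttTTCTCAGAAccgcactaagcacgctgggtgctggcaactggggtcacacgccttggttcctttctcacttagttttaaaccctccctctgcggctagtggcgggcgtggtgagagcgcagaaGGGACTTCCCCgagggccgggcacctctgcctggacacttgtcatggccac
The motifs, searched on both strands, were GAAA, any 2 bases, GAAA (the type bound by interferon-stimulated factors), TTCNNNGAA (the type bound by Stat dimers) and GGG, any 5 bases, CC (the kappa B type). They occur in 3.44%, 8.30% and 50.8% of 32851 RefSeq promoters of that length. A form of the first that is 1 base shorter, GAAANNGAA, was added after the sequences were seen and occurs in 8.56%. None of these members' promoters held the first motif in full. The Il12rb2 promoter held the Stat type as TTCTCAGAA, from base -123 to -115 relative to the start site, and 3 overlapping kappa B-type matches at the start site itself. The Il15ra promoter shown held GAAAGCGAA at bases 31 to 39 and a kappa B-type match at -102 to -93, and another Il15ra promoter (start of window at base 11705043) held the shorter form at -149 to -141 on the opposite strand. The Il12a promoter shown held kappa B-type matches at -113 to -103 and 18 to 27, the other Il12a promoter held none of the motifs, and neither did that of Il12b. Ebi3's promoter held kappa B-type matches only. A match is a string of letters, not a bound site.

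Libraries held 15687699 to 25714074 reads assigned to genes, so 3 reads, the limit that a count of 0 allows, were worth 0.117 to 0.191 CPM (reads of a gene scaled to a common library total), a limit that covers counting error only. Alveolar epithelial markers such as Sftpc summed to 7370 to 15500 CPM in each library. Mavs was at 32.2 to 36.4 CPM in the wild-type libraries of the knockout experiment and 2.35 to 3.09 CPM in the knockout ones. Tlr3 was at 42.4 to 156 CPM in the former and 10.1 to 14.8 CPM in the latter, so both genes were lower in each library labelled knockout. Cardiac muscle markers ranged from 124 to 1230 CPM between the PBS replicates of the RNase III experiment, and the knockout libraries with extract differed from each other more than the wild-type ones did (chi-square per degree of freedom 35.8 against 10.1). The tables of the experiments were normalized separately and are compared only within themselves.

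With PBS, Il15ra and Il15 had the highest levels. Levels per kilobase of exon, which can be compared between genes, were 3.98 ± 0.05 CPM per kb for Il15ra and 3.50 ± 0.38 for Il15 (SD, n = 2, RNase III experiment). Il12a at 1.64 ± 0.59 and Ebi3 at 1.39 ± 0.44 CPM per kb overlapped, and Il12rb2 lay below them at 0.807 ± 0.197. Il27 at 0.354 ± 0.188, Il12b at 0.272 ± 0.092 and Il12rb1 at 0.228 ± 0.078 CPM per kb were lowest and did not differ beyond their spread. With extract the order changed: Il15ra at 7.46 ± 1.87 and Il15 at 6.52 ± 1.46 CPM per kb stayed highest and overlapped, Il27 moved to the third place at 2.69 ± 0.90, and Il12a was lowest at 0.616 ± 0.152. Between them, Ebi3 at 2.35 ± 0.11 and Il12rb1 at 2.20 ± 0.86 CPM per kb overlapped with Il27. Il12rb2 at 1.86 ± 0.08 did not differ from Il12rb1 beyond its spread, and neither did Il12b at 1.52 ± 0.11 CPM per kb.

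Extract raised 6 of the 8 genes in the RNase III experiment, and none fell past the threshold; 1 of the 6, Il27, entered the test only through the libraries in which it was high (edgeR's quasi-likelihood test, Benjamini-Hochberg adjusted p under 0.05 over 17165 genes). Of all genes tested there, 6.51% were called higher and 4.50% lower. The median log2 fold change was 1.06 over the 8 genes and -0.01 over all genes. The lung is a mixture of cells, and more cells of a type cannot be told apart from more RNA per cell in these or later values. The rises ran from 1.87-fold for Il15 to 9.41-fold for Il12rb1, and the PBS and extract libraries did not overlap for any of the 8 genes. The share of all genes without such overlap was not counted, so this is a description only.

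**Figure D1:**
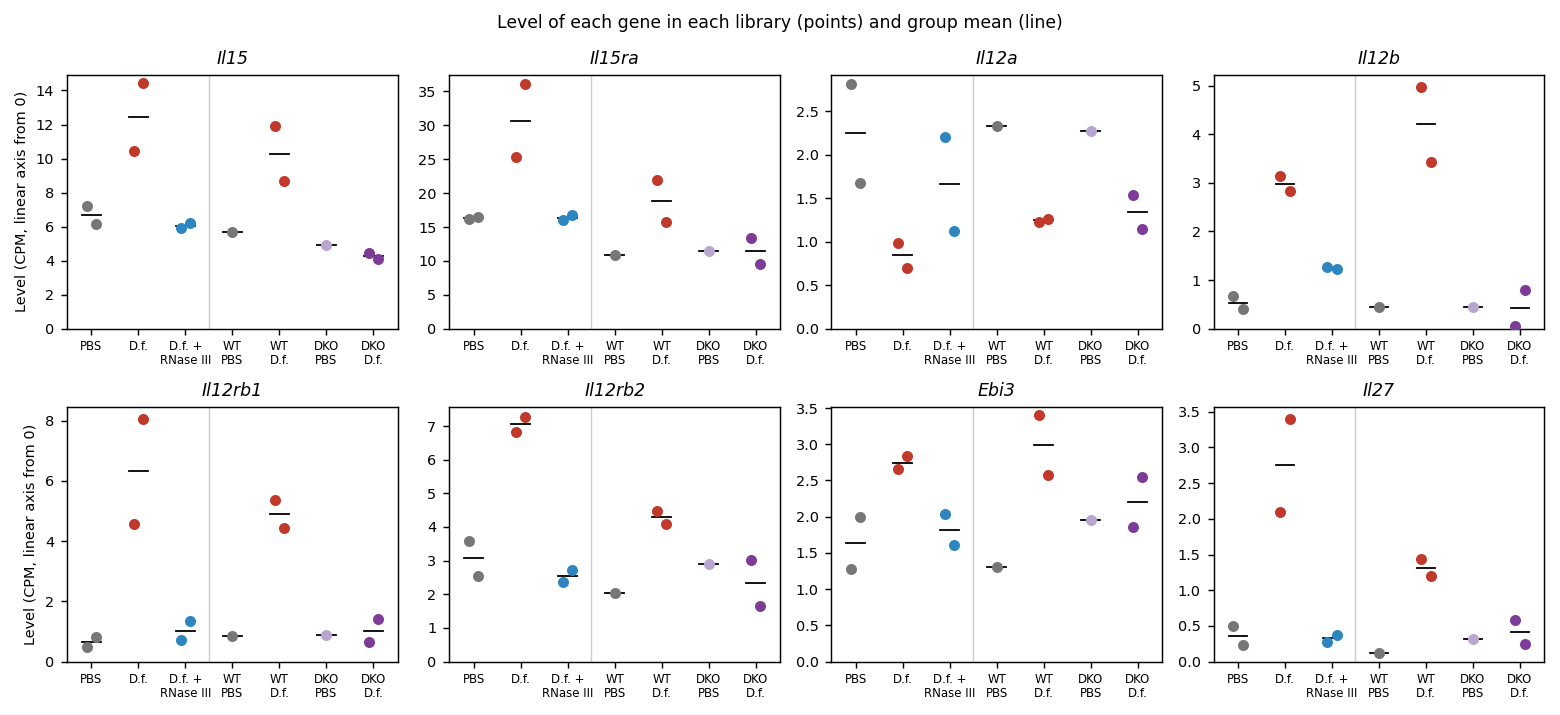
Level of each of the 8 genes in CPM (linear axis from 0) in the 12 libraries, points being libraries and lines group means; D.f. is the mite extract, WT wild type and DKO the Tlr3 Mavs double knockout, and the grey line parts the RNase III experiment from the knockout experiment, whose levels are not compared. Il12b, Il12rb1 and Il27 stand apart in the wild-type libraries with extract of both experiments, and Il12a is lower there than with PBS.

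Il15 (minus strand of chromosome 8, 84855536 to 84927121, NCBIM37) is the ligand of the presenting pair. In the RNase III experiment its level was 7.19 and 6.15 CPM with PBS, 10.5 and 14.4 CPM with extract, and 5.89 and 6.21 CPM with extract and RNase III. Extract libraries were above both other groups, which overlapped. The log2 fold change for extract against PBS was 0.90 ± 0.22 (SE, adjusted p = 0.0435 by edgeR), 1.87-fold. Il15ra (plus strand of chromosome 2, 11626914 to 11655613), which presents it, was at 16.2 and 16.5 CPM with PBS, 25.3 and 36.2 CPM with extract, and 16.0 and 16.7 CPM with extract and RNase III. The same layout held, with extract above both groups, and the rise was 0.91 ± 0.19 on the log2 scale (adjusted p = 0.0248 by edgeR). Per kilobase, Il15ra stood at 1.05 to 1.26 times Il15 in the 6 libraries. In the knockout experiment it stood at 0.840 to 0.880 times in wild type and at 1.07 to 1.40 times in the knockout, which do not overlap, a difference that was not tested.

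The chains of the Il12 cytokine moved in opposite directions. Il12b (plus strand of chromosome 11, 44213565 to 44227535), the chain shared with the Il23a cytokine, had 12 and 9 reads with PBS, 79 and 65 with extract, and 23 and 23 with extract and RNase III. The 3 groups did not overlap, with RNase III between the others. Its log2 fold change for extract against PBS was 2.48 ± 0.36 (adjusted p = 0.0062 by edgeR), 5.60-fold. Il12a (plus strand of chromosome 3, 68494566 to 68502469) is the other chain of the Il12 cytokine. It had 51 and 37 reads with PBS, 25 and 16 with extract, and 40 and 21 with extract and RNase III. Extract libraries were lowest once scaled to depth, at 0.991 and 0.697 CPM against 2.82 and 1.67 CPM with PBS and 2.20 and 1.12 CPM with RNase III. The difference from PBS was -1.39 ± 0.46 on the log2 scale and missed the threshold in this experiment (adjusted p = 0.108 by edgeR).

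The ratio of the chains per kilobase of exon followed the treatment. Il12b stood at 0.135 to 0.169 times Il12a in the 4 PBS libraries of both experiments and both genotypes. It stood at 2.20 and 2.83 times Il12a with extract in the RNase III experiment, and at 2.81 and 1.89 times in the wild-type extract libraries of the knockout experiment. With RNase III the ratio was 0.401 and 0.763, and in the knockout with extract 0.0240 and 0.485. The 4 wild-type libraries with extract alone thus held more Il12b than Il12a per kilobase, and the other 8 libraries held less. Ebi3, the other partner of Il12a, was at 0.528 to 1.39 times Il12a in the 4 PBS libraries, 2.40 to 4.76 times in those 4 libraries, 1.08 and 1.67 times with RNase III, and 1.41 and 2.60 times in the knockout with extract.

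**Figure D2:**
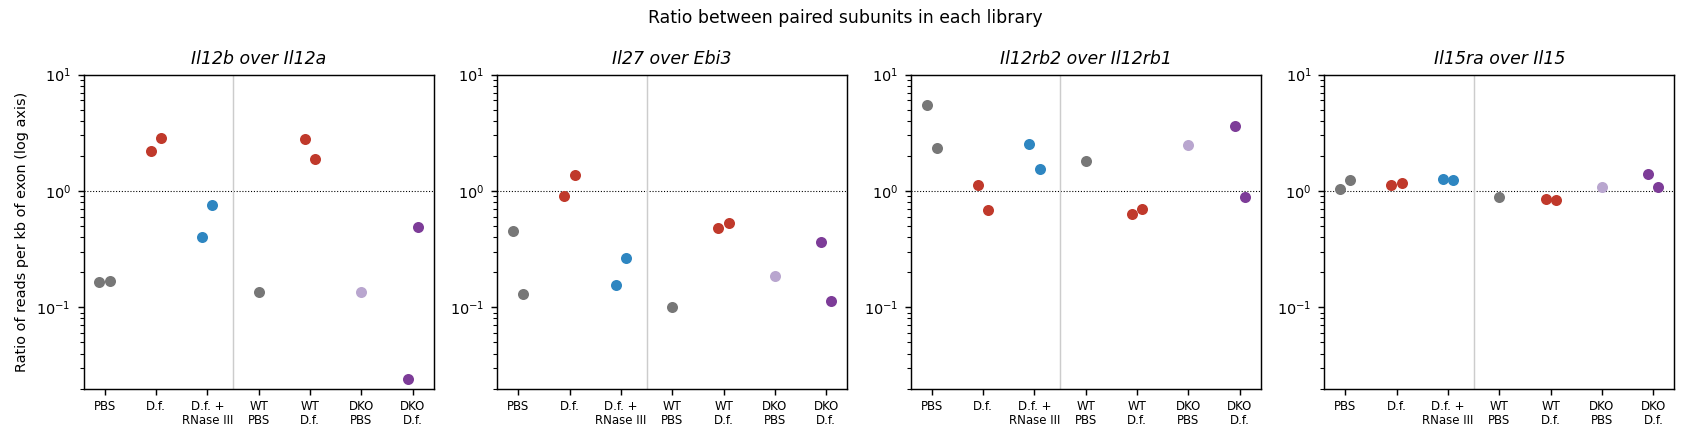
Ratio of reads per kilobase of exon between partner genes in each of the 12 libraries, on a log axis, with the dotted line at 1. Il12b over Il12a is 0.135 to 0.169 with PBS and 1.89 to 2.83 in the wild-type libraries with extract alone, while Il15ra over Il15 stays between 0.840 and 1.40 in each library.

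Il27 (minus strand of chromosome 7, 133732524 to 133738455) had 9 and 5 reads with PBS, 53 and 78 with extract, and 5 and 7 with extract and RNase III. Extract libraries stood far above the others, which overlapped, and the fitted difference from PBS was 2.94 ± 0.49 on the log2 scale (adjusted p = 0.0107 by edgeR), 7.66-fold. With at most 9 reads in each of the other 4 libraries, Il27 passed the filter only through the extract group, so its calls in this experiment are a description and no support. In the annotation, 103 exon bases of Il27 lie on the opposite strand of Apobr, which had 332 to 1013 reads. Counting by strand is not stated, so Apobr reads could enter Il27 counts; Apobr itself was not called in this comparison (0.40 ± 0.16, adjusted p = 0.161 by edgeR). Ebi3 (plus strand of chromosome 17, 56092046 to 56096444), the partner of Il27, had 23 and 44 reads with PBS, 67 and 65 with extract, and 37 and 30 with extract and RNase III. Extract libraries were again highest, at 2.66 and 2.83 CPM against 1.27 and 1.99 CPM, but the difference of 0.74 ± 0.33 on the log2 scale missed the threshold (adjusted p = 0.210 by edgeR). Antisense gene Gm16712, which shares 270 exon bases with Ebi3, had at most 7 reads. Per kilobase, Il27 was at 0.130 to 0.448 times Ebi3 with PBS and at 0.907 and 1.38 times with extract. In wild type of the knockout experiment it was at 0.0997 times Ebi3 with PBS and at 0.482 and 0.533 times with extract, lower than in the RNase III experiment but again higher with extract.

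Il12rb1 (plus strand of chromosome 8, 73332348 to 73345323), the receptor chain that binds Il12b, had 9 and 18 reads with PBS, 115 and 185 with extract, and 13 and 25 with extract and RNase III. It rose by 3.23 ± 0.47 on the log2 scale (adjusted p = 0.0062 by edgeR), 9.41-fold, the largest of the 8 fitted changes in this comparison. Il12rb2 (minus strand of chromosome 6, 67241312 to 67326182), the signalling chain that recruits Stat4, had 65 and 56 reads with PBS, 172 and 167 with extract, and 43 and 51 with extract and RNase III. Both chains were higher in the extract libraries than in the other 4, with no overlap, and Il12rb2 rose by 1.21 ± 0.26 on the log2 scale (adjusted p = 0.0285 by edgeR). Per kilobase, Il12rb2 was at 2.36 and 5.47 times Il12rb1 with PBS and at 1.13 and 0.684 times with extract.

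These calls rested on few libraries. Calls among the 8 genes were lost without PBS replicate 2, extract replicate 3 or 4, or RNase III replicate 5 or 6. Fewer of all genes were called higher without an extract or RNase III library, and more without a PBS library. Each fit without 1 library left a group without a replicate, so sizes of change are given and not calls. Log2 fold changes of the 6 genes ran from 0.62 (Il15ra) to 2.77 (Il12rb1) without extract replicate 4. Without extract replicate 3 they ran from 1.10 (Il15) to 3.58 (Il12rb1). They ran from 0.90 (Il15) to 3.24 (Il12rb1) without RNase III replicate 5, and from 0.89 to 3.23 without replicate 6. Without PBS replicate 1 they ran from 0.89 (Il15ra) to 3.57 (Il27), and without PBS replicate 2 from 0.79 (Il15) to 3.65 (Il12rb1). The log2 fold changes of the 6 genes stayed positive in each of these fits.

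In the knockout experiment the wild-type comparison, with 1 PBS library, gave 0 calls among the 8 genes by edgeR, beside 1.38% of 15294 genes called higher and 0.137% lower. DESeq2 called 1, Il12rb1, and gave no adjusted p for 1 other, beside 562 of 14447 genes called higher and 87 lower. At an unadjusted p under 0.05, 6 of the 8 lay below, against 17.1% of all genes. Il15 was at 5.69 CPM with PBS and 11.9 and 8.70 CPM with extract, and Il15ra at 10.8 CPM with PBS and 21.9 and 15.8 CPM with extract. Il12b had 8 reads with PBS and 101 and 57 with extract, and Il12rb1 had 15 reads with PBS and 109 and 74 with extract. In all of these the extract libraries were higher than the PBS library. Il12rb2 had 36 reads against 91 and 68, Ebi3 had 23 against 69 and 43, and Il12a had 41 against 25 and 21. Il27 had 2 reads with PBS and 29 and 20 with extract, a ratio of 11.7 from summed reads (95% interval 3.06 to 98.9, counting error only). Each member therefore differed from its PBS library in the direction seen in the RNase III experiment. Without knockout extract replicate 5 or 6, libraries that enter only through the shared spread, 7 of the 8 passed higher, in fits with 1 residual degree of freedom that called 1925 and 1666 of all genes higher.

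The 7 wild-type libraries without RNase III were also fitted together, with the experiment as a term. That fit called 6 of the 8 genes higher and Il12a lower, beside 8.53% of 15481 genes called higher and 6.18% lower. It shares its libraries with both comparisons above and is not a separate test. Il12a was 1.22 ± 0.30 lower on the log2 scale (mean 2.28 against 1.05 CPM, adjusted p = 0.0321 by edgeR). That call was lost when any of 5 libraries was left out: either extract replicate of either experiment, or the PBS library of the knockout experiment. Il12rb1 rose by 2.94 ± 0.33 (adjusted p = 0.000999 by edgeR), Il12b by 2.71 ± 0.32 (adjusted p = 0.0012 by edgeR) and Il27 by 3.03 ± 0.41 on the log2 scale. Il15, Il15ra and Il12rb2 rose by 0.86 ± 0.18, 0.84 ± 0.17 and 1.13 ± 0.19. Ebi3 differed by 0.88 ± 0.26 and missed the threshold (adjusted p = 0.0620 by edgeR). Leaving out 1 library at a time left 4 to 7 genes called higher. With no experiment term 3 were called higher and none lower by edgeR. Over all 15481 genes, that fit called 577 higher and 149 lower, against 1320 and 957 with the term.

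RNase III with the extract was set against PBS and against extract alone, comparisons that share libraries with the first. Against PBS, edgeR called 0 of the 8 genes (DESeq2 also called 0, and 50 of 17787 genes), beside 0.00583% of 17165 genes, 1 gene, called higher and 0% lower. At an unadjusted p under 0.05 lay 1 of the 8, against 4.86% of all genes. The lone gene was Il12b, at 1.23 ± 0.38 on the log2 scale (95% interval 0.34 to 2.13, adjusted p = 0.960 by edgeR). Both RNase III libraries, with 1.27 and 1.23 CPM, lay above both PBS libraries, with 0.663 and 0.407 CPM. The 95% intervals of the other 7 included 0. They ran from -0.67 to 0.39 for Il15, -0.45 to 0.45 for Il15ra, -0.90 to 0.38 for Il12rb2, -1.56 to 1.33 for Il27 and -0.58 to 1.83 for Il12rb1 on the log2 scale, so they differ widely in the size of change they leave room for.

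Against extract alone, 5 of the 8 genes were lower with RNase III and none higher, beside 4.85% of all genes lower and 2.41% higher (7.26% in either direction). Il27 fell by 3.05 ± 0.50 on the log2 scale (adjusted p = 0.0134 by edgeR) and Il12rb1 fell by 2.61 ± 0.45 (adjusted p = 0.0157 by edgeR). Apobr, which overlaps Il27, was also called lower, by 0.68 ± 0.16 (adjusted p = 0.0460 by edgeR); its part in the Il27 count was not tested. Il12rb2 fell by 1.46 ± 0.27, Il15 by 1.04 ± 0.22 and Il15ra by 0.91 ± 0.19. Il12b differed by -1.25 ± 0.33 (adjusted p = 0.0665 by edgeR), Ebi3 by -0.59 ± 0.33 and Il12a by 0.97 ± 0.47 on the log2 scale, and none of them passed. The median over the 8 genes was -1.15, against -0.0024 over all genes. Without extract replicate 4, RNase III replicate 5 or RNase III replicate 6 none passed, and without extract replicate 3 there were 3.

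**Figure D3:**
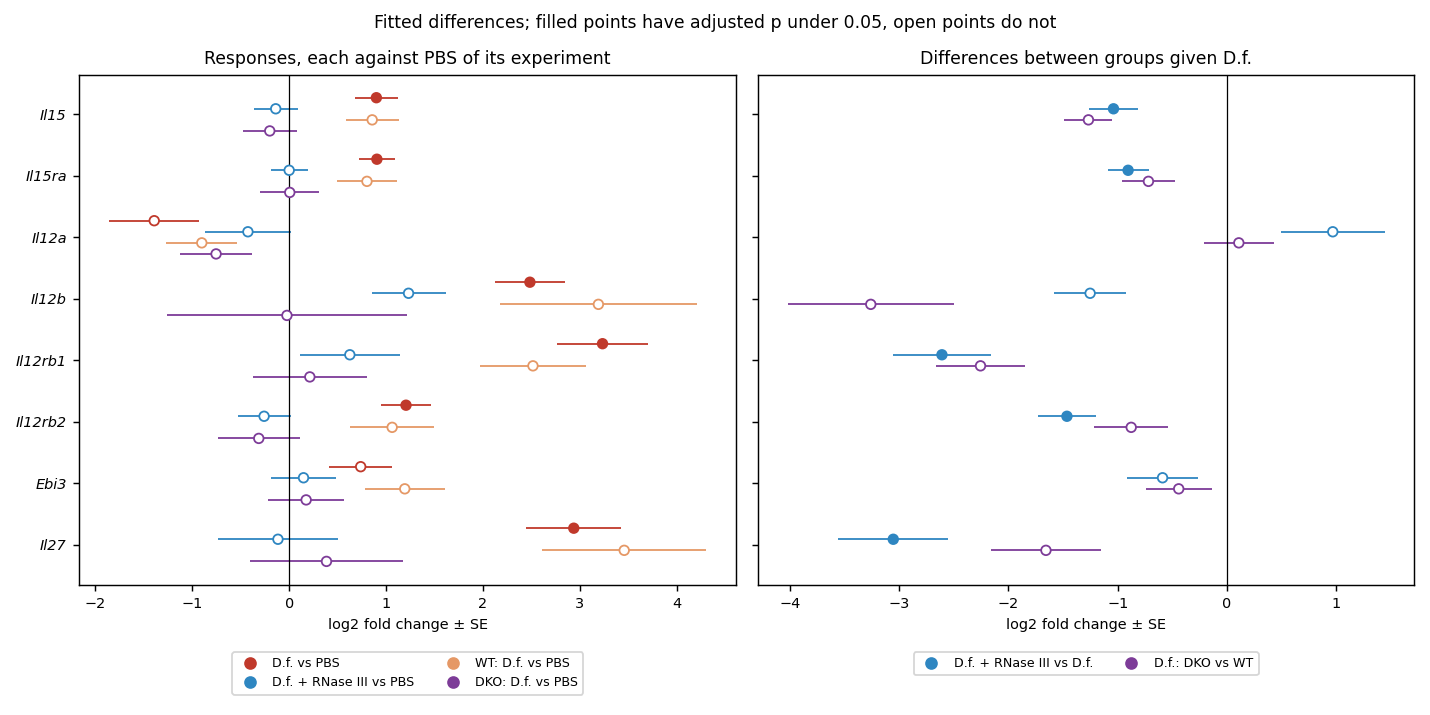
Log2 fold change ± SE of the 8 genes, at left for each treated group against PBS of its own experiment and at right between groups that received extract; filled points have an adjusted p under 0.05 by edgeR. Il15ra sits at 0.00 for extract with RNase III and 0.01 for the knockout at left, and Il12a is the gene on the negative side for extract against PBS.

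In Tlr3 Mavs double knockout lung no member was called with extract against PBS, and the extract replicates spread widely for several. Il15 was at 4.92 CPM with PBS and 4.47 and 4.10 CPM with extract, and Il15ra at 11.4 CPM with PBS and 13.5 and 9.50 CPM with extract. Il12rb1 had 14 reads with PBS and 12 and 28 with extract, and Il27 had 5 reads with PBS and 11 and 5 with extract. Both Il15 values with extract lay below that with PBS. Il12b had 7 reads with PBS and 1 and 16 with extract, Il12rb2 had 46 against 57 and 33, and Ebi3 had 31 against 35 and 51. Once scaled to depth, the extract pair lay on both sides of the PBS value for these 3 genes and for Il15ra, Il12rb1 and Il27. Il12a had 36 reads with PBS and 29 and 23 with extract, lower in both. EdgeR called 0 of the 8 genes (0 at an unadjusted p under 0.05; DESeq2 also called 0, with no adjusted p for 3), beside 0% of 15294 genes in either direction. The interval for Il15, -0.90 to 0.50 on the log2 scale, and that for Il12b, -3.11 to 3.07, differ widely in the room they leave. Both rest on 1 PBS library. The Il12b estimate was 0.85 without extract replicate 5, with 1 read, and -2.90 without extract replicate 6, with 16 reads.

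Between genotypes given extract, edgeR called 0 of the 8 genes, beside 2.01% of 15294 genes called lower and 0.517% higher (2.53% in either direction). At an unadjusted p under 0.05 lay 6 of the 8, against 18.2% of all genes. Il15 was 1.27 ± 0.22 lower in the knockout on the log2 scale (10.3 ± 2.25 against 4.28 ± 0.26 CPM, SD, n = 2, adjusted p = 0.0553 by edgeR). Il12rb1 differed by -2.26 ± 0.40 (4.91 ± 0.66 against 1.02 ± 0.54 CPM, SD, n = 2, adjusted p = 0.0602 by edgeR) and Il12b by -3.26 ± 0.76 (4.20 ± 1.10 against 0.426 ± 0.528 CPM, adjusted p = 0.105 by edgeR). Libraries of the genotypes did not overlap for Il15, Il15ra, Il12b, Il12rb1, Il12rb2, Ebi3 or Il27. The share of all genes without overlap was not counted, so this is a description only. For Ebi3 the gap was narrow, 2.58 CPM in wild-type replicate 4 against 2.55 CPM in knockout replicate 6. DESeq2 called 3 lower, Il15, Il12b and Il12rb1, as did a fit over all 12 libraries, and edgeR with no filter on low counts called 2, Il15 and Il12rb1. Over all genes these alternatives called 530 of 14803, 356 of 15469 and 422 of 18363 lower. Without knockout replicate 5 there were 6 and without knockout replicate 6 there were 3, in fits that called 1775 and 1419 genes lower. Il12b depended most on that pair, with a log2 difference of -2.39 without replicate 5, the library with 1 read, and -6.14 without replicate 6. Il12a was at 1.23 and 1.26 CPM in wild type and 1.54 and 1.15 CPM in the knockout, which overlap.

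The difference between the responses of the genotypes, made of the same libraries, was tested directly as an interaction. No member passed by edgeR or DESeq2, beside 0.00654% of 15294 genes called lower by edgeR, which is 1 gene, and 0% higher. At an unadjusted p under 0.05 lay 2 of the 8, Il15 and Il12rb1, against 9.68% of all genes. The estimates were -1.06 ± 0.39 for Il15, -2.30 ± 0.81 for Il12rb1, -3.21 ± 1.68 for Il12b and -1.38 ± 0.61 for Il12rb2 on the log2 scale. Adjusted p by edgeR was 0.464, 0.442, 0.653 and 0.572. Il27, Ebi3 and Il15ra had estimates of -3.07 ± 1.26, -1.02 ± 0.57 and -0.80 ± 0.43. Il12a, at 0.15 ± 0.53, was the lone positive estimate. Without knockout replicate 5 Il15ra and Il12rb2 passed, and without knockout replicate 6 Il12b and Il12rb1 did, in fits with 1 residual degree of freedom that called 1055 and 759 genes lower. With PBS alone, 1 library of each genotype, the knockout and the wild type had 4.92 and 5.69 CPM of Il15, 7 and 8 reads of Il12b, and 14 and 15 reads of Il12rb1, with no replicate check. The knockout library was higher for Il27 (5 and 2 reads), Ebi3 (1.95 and 1.31 CPM) and Il12rb2 (2.90 and 2.05 CPM), and these single libraries enter the interaction estimates. Il15ra was at 11.4 and 10.8 CPM and Il12a at 2.27 and 2.33 CPM.

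Partner chains and signalling genes were read from lists by role, chosen with earlier results of these data known. Over the 7 wild-type libraries, 4 of 9 tested Il15 receptor partners and signalling genes rose, 3 of 8 for the Il12 and Il23 cytokines and 4 of 7 for Il27 and its relatives, with none lower, beside 8.53% of all genes higher and 6.18% lower. Their medians were 0.59, 0.49 and 0.98 on the log2 scale, against -0.03 over all genes. Il2rb, the chain shared by the Il2 and Il15 receptors, rose by 1.77 ± 0.13 and Il2rg, the common chain, by 1.19 ± 0.13. Stat4, which carries the Il12 signal, rose by 1.22 ± 0.16 (adjusted p = 0.0022 by edgeR). By contrast, Il27ra and Il6st, the chains of the Il27 receptor, differed by 0.52 ± 0.17 and 0.15 ± 0.13 and did not pass (adjusted p = 0.0775 and 0.502 by edgeR). Socs1, which blocks Janus kinase signalling, rose by 2.57 ± 0.27 and Cd274, an inhibitory ligand for T cells, by 3.15 ± 0.19.

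Of 11 factors known to act on the ligand genes, 8 rose and none fell, and of 11 effector genes of NK and T cells, 11 rose, again beside 8.53% of all genes higher. Among these effector genes Ifng and Xcl1 passed the filter only through extract libraries, so their calls are a description and no support. In the RNase III experiment Xcl1 had 1 to 3 reads with PBS and 37 to 60 with extract. Irf1, which acts at several of the ligand genes, rose by 1.47 ± 0.16 and Irf7 by 5.17 ± 0.46 on the log2 scale. Gzmb, a granule protease, rose by 3.09 ± 0.23. Ifng, the main product of Il12 signalling, had 1 and 3 reads with PBS and 30 and 41 with extract in the RNase III experiment, and 2 with PBS and 21 and 7 with extract in wild type of the other. Ifng was higher in each of these 4 extract libraries than in the wild-type PBS libraries of its experiment. It had 5 and 3 reads with RNase III, and in the knockout 2 with PBS and 1 and 4 with extract. With no experiment term, the counts were 1 of 8 for the Il12 and Il23 list and 6 of 11 for the effector genes, and those of the other 3 lists were 3, 3 and 6. That fit called 577 of 15481 genes higher.

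With RNase III against extract alone, 3 of 9 Il15 partners were lower, 2 of 7 of the Il12 and Il23 list, 5 of 7 of the Il27 list, 7 of 11 factors and 11 of 11 effector genes, and none was higher, beside 4.85% of all genes lower and 2.41% higher. Ifng and Xcl1 again entered only through the extract libraries, so their calls here are a description and no support. Il2rb fell by 2.02 ± 0.18 and Gzmb by 3.24 ± 0.25 on the log2 scale. Stat4 differed by -1.05 ± 0.26 and missed the threshold (adjusted p = 0.0574 by edgeR). Without RNase III replicate 5 the counts of the 5 lists were 1, 0, 2, 1 and 2, without RNase III replicate 6 they were 1, 0, 3, 2 and 2, without extract replicate 4 they were 1, 0, 3, 5 and 4, and without extract replicate 3 they were 1, 1, 3, 6 and 5. Those fits called 137 of 17894, 198 of 17901, 330 of 17463 and 459 of 17530 genes lower. Between genotypes with extract, Il2rb fell by 1.08 ± 0.16 (adjusted p = 0.0424 by edgeR), the lone called gene of 9, Socs1 was the lone gene of 7, Ccl5 the lone gene of 11 effector genes, and 3 of 11 factors (Irf7, Irf8 and Stat2) were lower. Ccl5, a chemokine for T and NK cells, was also the gene called in the interaction, at -4.92 ± 0.25. That estimate rests on single PBS libraries, with 191 reads of Ccl5 (against 113 and 111 with extract) in the knockout and 57 in wild type, and the call was lost without either wild-type extract replicate. Gzmb was also higher in the knockout PBS library than in the wild-type one, at 3.15 and 0.854 CPM, as was Eomes, a T and NK cell factor, at 4.54 and 0.911 CPM. Of the list genes lower in the knockout with extract, none was called without wild-type extract replicate 3, and 1, Ccl5, was called without replicate 4, in fits that called 7 of 15217 and 17 of 15335 genes lower.

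**Figure D4:**
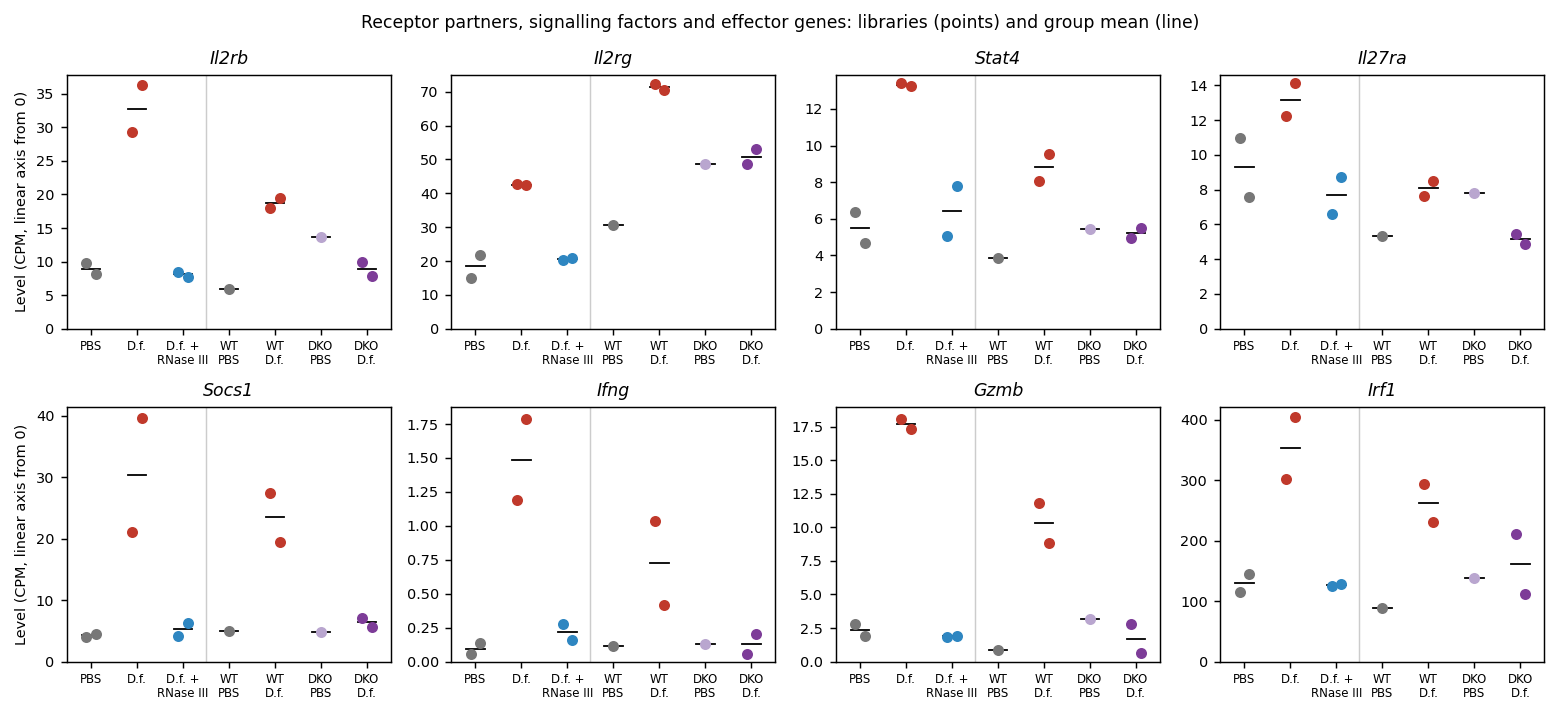
Levels in CPM (linear axis from 0) of receptor partners, signalling genes, Ifng, Gzmb and Irf1 in the 12 libraries, points being libraries and lines group means. Il2rb, Stat4, Gzmb and Socs1 are highest in the wild-type extract libraries of each experiment, and Il27ra spans a narrower range.

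Markers of cells that make or bind these cytokines moved with some of the comparisons and not with others. Monocyte markers (5 genes) summed to 43.2 to 72.9 CPM with PBS, 407 to 462 with extract and 77.4 to 81.2 with RNase III, and to 242 to 282 CPM in wild-type and 81.8 to 122 CPM in knockout lung with extract. T cell markers (8 genes) summed to 35.6 to 46.5 CPM with PBS, 77.0 to 78.9 with extract and 30.7 to 33.4 with RNase III. In the knockout experiment the T cell sum was 22.7 CPM with PBS and 48.5 to 49.8 with extract in wild type, and 34.4 and 22.1 to 22.8 in the knockout. NK cell markers (6 genes) summed to 15.3 to 20.6 CPM with PBS, 28.5 to 33.6 with extract and 16.6 to 17.0 with RNase III. Dendritic cell markers (9 genes) summed to 117 to 162, 190 to 214 and 157 to 170 CPM in these groups, although 2 of the 9, Xcr1 and Cd209a, fell with extract against PBS. The dendritic sum of the knockout experiment was 78.2 CPM with PBS and 185 to 217 with extract in wild type, and 87.5 and 102 to 221 in the knockout, so the genotypes overlapped. Alveolar macrophage markers (7 genes) summed to 390 to 428 CPM with PBS, 271 to 423 with extract and 401 to 415 with RNase III, and to 385 to 397 CPM in wild type and 421 to 463 CPM in the knockout with extract. Their sum hid moves of single markers. With extract against PBS in the RNase III experiment, 2 of the 7 were called lower and 1 higher, with a median log2 fold change of -1.30. With RNase III against extract, 2 were called higher and 0 lower. The NK cell sum of the knockout experiment was 11.1 CPM with PBS and 14.5 to 15 with extract in wild type, and 27 and 13 to 17.4 in the knockout, where the extract groups overlapped. These NK sums mix opposite moves. With extract in wild type, 5 of the 6 markers had a positive log2 fold change in each experiment, and Klrb1b had a negative one. In the knockout experiment Klrb1b was at 5.18 CPM with PBS and a mean of 1.83 with extract in wild type, and at 5.11 and a mean of 6.18 in the knockout. Of these 5 lists, 1 NK cell marker had 0 reads, in the wild-type PBS library of the knockout experiment. In the knockout experiment cardiac muscle markers summed to 384 to 581 CPM in wild type and 84.2 to 156 CPM in knockout lung with extract. The part of these markers in the members' changes was not tested.

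Genes with the most similar pattern were found by the root-mean-square difference of log2(CPM + 0.5), centred on each experiment's mean, over the 12 libraries and 14698 genes. Nearest to Il15 were Lgals8 (0.116), Asb13 and Dusp28, and nearest to Il15ra were Casp12 (0.0826), Abtb2 and 1110018G07Rik. Nearest to Il12rb2 were Unc93b1 (0.150), Lck and Ptprc, and nearest to Il12rb1 were Arsi (0.238), Socs1 and Aoah. Il27 had Gm6548 (0.133), Tcirg1 and BC013712, Ebi3 had Emilin1 (0.114), Efhd2 and Dse, and Il12b had Sfrp1 (0.306), Gm15056 and Xcl1. Il12a had Rtn2 (0.153), Tcf21 and Vipr2. Among the members, Il15 and Il15ra were closest to each other (0.177) and Il12a and Il12rb1 farthest apart (1.41). These distances describe the libraries and share their depth and treatment. The added 0.5 CPM flattens differences between low levels, so near genes need not share the size of change. Log2 fold changes with extract in the RNase III experiment were 2.48 for Il12b, 1.98 for Sfrp1, 6.85 for Gm15056 and 4.24 for Xcl1. They were 2.94 for Il27, 2.20 for Gm6548, 1.73 for Tcirg1 and 2.16 for BC013712.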

How the data were processed

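RNA of whole mouse lung was sequenced as 100-base single-end reads in 12 libraries. The submitters' processing notes name bcl2fastq, TopHat2 2.0.8b, HTSeq and mm9. Which annotation and strand mode HTSeq used is not given in the sources used here. Each library has a deposited table of raw gene-level counts that the authors did not normalize. Lines for reads without a gene were left out. They held 36.8% to 44.6% of reads as not unique and 27% to 40% as outside genes.

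Counts were fitted in R 4.3.3 with edgeR 4.0.16 (TMM scaling, filterByExpr, glmQLFit, glmQLFTest), each experiment on its own 6 libraries. P-values were adjusted by Benjamini-Hochberg over all genes tested, with 0.05 as threshold. CPM use TMM-scaled library sizes. SE is the log2 fold change over the root of F, and 95% intervals use the degrees of freedom of the fit. A lone PBS library was assumed to vary like the replicated groups. Exon lengths and gene coordinates come from GENCODE M1 (NCBIM37, the assembly called mm9). Alternatives were DESeq2 1.42.0, RLE scaling, no filter, 1 fit over 12 libraries, leaving out each library, and no experiment term. The fits were tested on simulated data.

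The 8 genes, all lists and the naming rule were chosen with earlier results of these data known. Named beside the 8 were up to 4 genes per list with the smallest p, 8 partner genes (1 of them is not reported here), and the 3 genes most like each member. Apobr, Gm16712, Xcr1, Cd209a, Klrb1b, Xcl1 as an effector gene and the Ccl5 interaction were named after their values were seen.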

Additional observations from a re-analysis of the deposited data

How the results depend on the processing

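Of 612 gene values under alternatives, 508 kept direction and side of the threshold, 46 lost and 40 gained a call, and 18 changed sign. For wild-type extract against PBS in the knockout experiment, DESeq2 called 1 gene higher against 0. For knockout against wild type with extract, 0 genes were called lower by edgeR, 3 by DESeq2, 2 with no filter and 3 in 1 fit over 12 libraries. The fit over both experiments without the experiment term called 3 higher and 0 lower, against 6 and 1. Over all genes it called 577 higher and 149 lower, against 1320 and 957. Leaving out 1 library at a time gave 0 to 6 genes higher and 0 to 1 lower (Il12a, without PBS replicate 2) for extract against PBS in the RNase III experiment, and 0 to 6 lower for RNase III against extract. It gave 0 to 7 higher for wild type and 0 to 6 lower between genotypes in the knockout experiment, 0 to 2 for the interaction, and 4 to 7 higher and 0 to 1 lower over both experiments. The cause was not tested, beyond the fewer residual degrees of freedom of these fits.

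Signs changed only in differences that edgeR did not call. On the log2 scale, Il15ra for RNase III against PBS went from 0.0003 to -0.008 with no filter, and Il6st between genotypes from -0.0092 to 0.0113 in 1 fit over 12 libraries. Leaving out 1 library at a time, RNase III against PBS ran from -0.1275 to 0.5163 for Ebi3, -0.6018 to 0.5155 for Il27, -0.0354 to 0.0333 for Il15ra and -0.493 to 0.0106 for Il12rb2. In the knockout, extract against PBS ran from -2.8972 to 0.8468 for Il12b, -0.0709 to 0.3812 for Ebi3, -0.3278 to 0.8767 for Il27, -0.2657 to 0.2368 for Il15ra, -0.4642 to 0.66 for Il12rb1 and -0.8125 to 0.063 for Il12rb2. Between genotypes it ran from -0.1159 to 0.3076 for Il12a and -0.0857 to 0.07 for Il6st, and the interaction from -0.0761 to 0.3737 for Il12a.

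No paired analysis was possible because the groups compared share no replicate number. Depth limits Il12b, Il27 and Il12rb1 most, since several libraries hold fewer than 20 reads of them.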

Other observations

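Il23a, which pairs with Il12b to form another cytokine, had a pattern unlike that of Il12b. It had 121 reads in the wild-type PBS library of the knockout experiment and 27 and 16 with extract, and 57 reads in the knockout PBS library and 76 and 37 with extract. In the RNase III experiment it had 0 and 3 reads with PBS, 13 and 5 with extract, and 6 and 6 with RNase III. In wild type of the knockout experiment both extract libraries lay below the PBS library while those of Il12b lay above it. Il12a was also lower there, with 41 reads with PBS and 25 and 21 with extract. The Il23a difference there was -2.57 ± 0.50 on the log2 scale and missed the threshold (adjusted p = 0.0902 by edgeR), and it rests on 1 PBS library.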
